A study of Mus musculus with 12 samples.

Results

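The activin and TGF-beta growth brake is described here through 10 genes: the activin subunit genes Inhba, Inhbc and Inhbe, the activin antagonist Fst, the ligand Tgfb1, the receptors Tgfbr1 and Tgfbr2, and the signal transducers Smad2, Smad3 and Smad7. They were chosen by name, as the rows of the gene-level count table that carry these symbols, and make up 10 of its 31053 gene rows. All 10 passed the filter on low counts and were among the 12257 genes tested. The data are poly(A) RNA-seq read counts from hepatocytes of 12 mice, with 3 separate mice in each of 4 groups. All mice were 3-month-old C57BL/6J animals on chow, and all had received an AAV8 vector through the tail vein, 1 week before the operation where there was one. In P16 mice the vector was AAV8-TBG-eGFP-P16, and in GFP mice it was AAV8-TBG-eGFP, so both arms carried eGFP. TBG is a promoter active in hepatocytes, and the labels do not give the share of cells that took up a vector. Hepatocytes were taken by collagenase perfusion 48 h after removal of 70% of the liver in 1 group of P16 mice and 1 group of GFP mice, and from mice without the operation (0 h) in the other group of each arm.

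Activins and TGF-beta are secreted dimers that bind type II receptors, which recruit and phosphorylate type I receptors. The type I receptors phosphorylate SMAD2 and SMAD3, which enter the nucleus with SMAD4 and change transcription, while SMAD7 blocks the type I receptor and is itself induced by the pathway. In the liver these ligands are known for stopping hepatocyte division and for ending regeneration after hepatectomy. Follistatin, the product of Fst, binds activins and lifts that brake. Liver TGF-beta1 comes largely from non-parenchymal cells, whereas the activin subunits of Inhbc and Inhbe are made mainly by hepatocytes.

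Smad7 was the gene of the set with the clearest difference between the arms. It was 2.07-fold lower in P16 than in GFP mice at 48 h, where it passed the test, and 2.07-fold lower at 0 h, where it did not. Tgfbr2 and Smad3 were also lower in every P16 mouse than in every GFP mouse at 48 h, without passing the test there. After hepatectomy Inhbc fell and Tgfbr2 rose in both arms, and Inhba and Tgfb1 rose and Smad3 fell in P16 mice. The GFP calls held in all 20 alternatives. Each of these P16 calls, and the Smad7 call at 48 h, was lost when certain single mice were left out. No gene of the set passed the test of a difference between the arms in the response to hepatectomy.

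Libraries held 14617049 to 25409451 reads in genes. Values are CPM, read counts scaled to a common library size that was adjusted with TMM, and levels of different genes are compared only as CPM per kilobase of exon (RPKM). Adjusted p-values are from edgeR's quasi-likelihood test on all 12 libraries with Benjamini-Hochberg adjustment over the 12257 genes, and a gene was called below 0.05. Each group enters more than 1 comparison, so the comparison of the arms at 48 h shares its libraries with the 48 h against 0 h comparisons, and the same holds at 0 h. Cdkn2a, the gene of the P16 protein, had 105 to 620 reads in each P16 library and 0 to 5 in each GFP library, which matches the labels. All 10 hepatocyte markers were detected in every group, at a summed 76700 to 115000 CPM. Kupffer cell and macrophage markers summed to 32.0 to 216 CPM, sinusoidal endothelial markers to 56.2 to 155 CPM and stellate cell markers to 57.9 to 140 CPM. GFP replicate 2 at 0 h had the highest macrophage sum, and it and P16 replicate 2 at 48 h had the highest sums of 10 acute-phase genes, 35900 and 63000 CPM against 10100 to 30000 CPM in the other libraries. In such bulk samples, fewer cells of a type and less RNA per cell cannot be told apart.

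Per length, Inhbc was the most abundant of the 10 genes in all 4 groups, and its range did not overlap that of the next gene in any. It averaged 21.5 ± 5.23 RPKM in P16 mice at 48 h and 15.8 ± 1.52 RPKM in GFP mice at 48 h, with 33.6 ± 6.6 RPKM in P16 mice at 0 h and 33.0 ± 5.53 RPKM in GFP mice at 0 h (SD, n = 3 each). Inhbe was the next most abundant in P16 mice at 48 h (5.69 ± 3.26 RPKM) and in both 0 h groups (6.6 ± 2.08 RPKM in P16 mice and 5.3 ± 1.74 RPKM in GFP mice). In GFP mice at 48 h, Tgfbr2 held that place with 3.86 ± 0.352 RPKM. Inhbe at 2.71 ± 0.657 RPKM overlapped Tgfbr1 at 2.59 ± 0.111 RPKM there. The Inhbe values use 5319 exonic bases, whereas RefSeq places the Inhbe start further in. A shorter length would raise them, so the place of Inhbe in this order depends on the length used. Tgfb1 had the lowest mean in every group, with 0.772 ± 0.191 RPKM in P16 mice at 48 h, 0.736 ± 0.194 RPKM in GFP mice at 48 h, 0.332 ± 0.16 RPKM in P16 mice at 0 h and 0.749 ± 0.297 RPKM in GFP mice at 0 h. The genes between these ends lay close together, and most neighbours in the order overlapped between mice. Apart from Inhbc and Inhbe, the highest value in any mouse was 4.17 RPKM, for Tgfbr2.

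**Figure D1:**
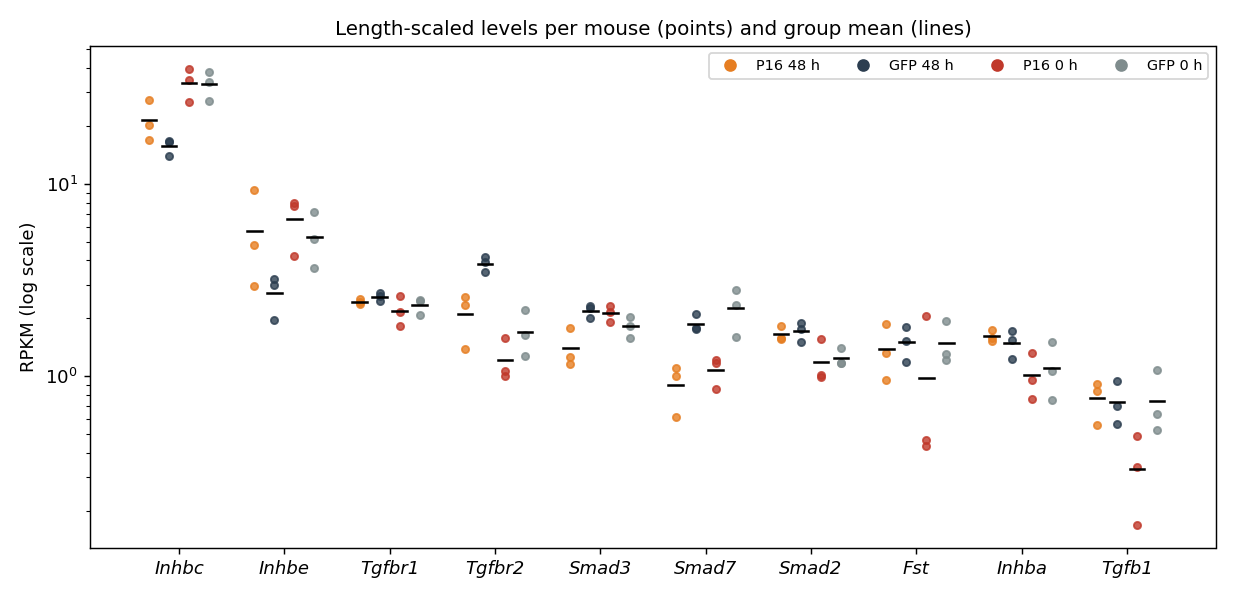
Level of each of the 10 genes in CPM per kilobase of exon (RPKM, log axis) in each mouse, coloured by group, with the group mean as a bar. Inhbc stands above all other genes in every group, at a mean of 15.8 to 33.6 RPKM, and Tgfb1 has the lowest group means.

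The liver activin genes Inhbe and Inhbc lie side by side on the minus strand of GRCm38 (mm10) chromosome 10. Inhbe spans chr10:127348857-127354411 with 5319 bases of exon and Inhbc spans chr10:127356322-127370431 with 1859, and 1910 bases without another annotated gene separate them. The antisense gene Gm47200 overlaps both on the plus strand and shares 268 exonic bases with Inhbc and 0 with Inhbe. Neither the labels nor the processing notes say whether the counting used strand, so some reads counted for Inhbc may come from Gm47200. RefSeq promoter windows on GRCm38.p6 were found for 7 of the 10 genes. The 250 bases before the RefSeq start of these neighbouring genes are shown, on the gene's strand from 5′ to 3′, because Inhbc was the most abundant transcript of the set and Inhbe its neighbour. Capitals mark matches to the SMAD-binding letters CAGAC or, read on the other strand, GTCTG, and to TGATGNA, letters of the C/EBP-ATF response element (CARE), or its reverse complement.
Inhbc: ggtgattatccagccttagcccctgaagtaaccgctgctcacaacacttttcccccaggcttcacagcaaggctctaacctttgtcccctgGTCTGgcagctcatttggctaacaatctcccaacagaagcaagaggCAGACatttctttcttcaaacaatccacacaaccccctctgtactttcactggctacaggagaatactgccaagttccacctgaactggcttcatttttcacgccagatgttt
Inhbe: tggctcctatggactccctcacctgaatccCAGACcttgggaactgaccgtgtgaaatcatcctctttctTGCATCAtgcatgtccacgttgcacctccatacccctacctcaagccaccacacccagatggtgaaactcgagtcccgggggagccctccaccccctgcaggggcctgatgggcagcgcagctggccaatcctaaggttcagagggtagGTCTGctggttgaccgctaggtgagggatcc
The Inhbc window (chr10:127370549-127370798) holds 2 SMAD matches, at bases 159 to 155 and 113 to 109 before the start. In the Inhbe window (chr10:127351849-127352098), which lies inside the gene span given above because RefSeq places the start further in, there are also 2 SMAD matches, at bases 220 to 216 and 31 to 27, and 1 CARE match on the other strand at bases 180 to 174. A CAGAC match occurs in 42.2% of 32851 mouse promoter windows of this length and a TGATGNA match in 10.4%, so these matches describe the letters and nothing more. Neither window holds the AP-1 letters TGACTCA (4.46% of windows) or the E-box CACGTG (6.02%).

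Inhbc encodes the activin beta C subunit, which dimerises with itself or with other activin subunits. It had 37.6, 50.7 and 31.6 CPM in P16 mice at 48 h, against 30.7, 26.1 and 31.2 CPM in GFP mice at 48 h. At 0 h it had 73.9, 49.5 and 64.2 CPM in P16 mice, against 50.2, 70.6 and 63.1 CPM in GFP mice. Every GFP mouse at 48 h lay below every GFP mouse at 0 h, and in P16 mice 1 mouse at 48 h reached into the 0 h range. The fall from 0 h passed the test in GFP mice (log2 fold change -1.06, SE 0.18, adjusted p = 0.000212) and in P16 mice (-0.65, SE 0.18, adjusted p = 0.00879). In GFP mice it passed in all 20 alternatives, whereas in P16 mice leaving out P16 replicate 3 of 48 h ended the call (adjusted p = 0.051), as did omitting the scaling (adjusted p = 0.0527). At 48 h all P16 mice lay above all GFP mice, by a margin of 31.6 against 31.2 CPM, with a log2 fold change of 0.44 (SE 0.18) that did not pass (adjusted p = 0.204). The difference between the responses was 0.42 (SE 0.25, adjusted p = 0.55).

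Inhbe encodes the beta E subunit, also a hepatocyte product. Its values spread widely, with 25.7, 49.4 and 15.7 CPM in P16 mice at 48 h, against 17.0, 10.4 and 15.8 CPM in GFP mice at 48 h. At 0 h P16 mice had 22.4, 42.2 and 40.8 CPM, against 19.4, 27.4 and 37.9 CPM in GFP mice. The groups of the arms overlapped at both times, and GFP mice at 48 h lay wholly below GFP mice at 0 h. Inhbe passed no test in the fit of all 12 libraries: the log2 fold change was 1.06 (SE 0.45, adjusted p = 0.259) for P16 against GFP mice at 48 h and -0.96 (SE 0.45, adjusted p = 0.135) for 48 h against 0 h in GFP mice. In the fit of only the 2 groups compared, that GFP response passed (-0.98, adjusted p = 0.0206). The highest value came from P16 replicate 2 at 48 h, the library with the highest acute-phase sum. GFP replicate 2 at 0 h had the next highest sum, 35900 CPM, and 27.4 CPM of Inhbe. P16 replicates 2 and 3 at 0 h had sums of 12700 and 11800 CPM, and 42.2 and 40.8 CPM of Inhbe. The acute-phase genes summed to 21600 to 63000 CPM in P16 mice and 14200 to 16000 CPM in GFP mice at 48 h. At 0 h they summed to 10100 to 12700 CPM in P16 mice and 11600 to 35900 CPM in GFP mice. The part of these genes in the Inhbe values was not tested. The ratio of Inhbe to Inhbc per length was 0.239, 0.341 and 0.173 in P16 mice at 48 h, against 0.194, 0.14 and 0.177 in GFP mice at 48 h. At 0 h it was 0.106, 0.298 and 0.222 in P16 mice, against 0.135, 0.136 and 0.21 in GFP mice. So these neighbours kept no fixed ratio between mice, and the groups overlapped. The size of the ratio rests on the 5319 exonic bases used for Inhbe, and a shorter length would raise it in every mouse.

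Inhba encodes the beta A subunit of activin A, the best-known activin in liver growth arrest, and lies on chromosome 13 (chr13:16011851-16031621, plus strand, 6390 exonic bases). It had 11.1, 9.8 and 10.2 CPM in P16 mice at 48 h, against 10.9, 9.84 and 7.88 CPM in GFP mice at 48 h. Before hepatectomy P16 mice had 8.42, 6.14 and 4.89 CPM, against 6.85, 4.8 and 9.58 CPM in GFP mice. All P16 mice at 48 h lay above all P16 mice at 0 h, and Inhba rose there by 0.68 on the log2 scale (SE 0.25, adjusted p = 0.0374). That call did not hold when P16 replicate 2 or 3 at 0 h or any 1 of the P16 replicates at 48 h was left out (adjusted p = 0.0529 to 0.157). In GFP mice the log2 fold change was 0.44 (SE 0.25, adjusted p = 0.182) with overlapping groups, and the difference between the responses was 0.24 (SE 0.35, adjusted p = 0.851).

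Fst encodes follistatin (chr13:114452290-114458951, minus strand, 4589 exonic bases, of which 115 are shared with the antisense gene Gm47040). Its counts were 6.05, 4.38 and 8.59 CPM in P16 mice at 48 h, against 7.02, 8.28 and 5.41 CPM in GFP mice at 48 h. At 0 h they were 9.45, 2.13 and 1.98 CPM in P16 mice, against 5.95, 8.93 and 5.54 CPM in GFP mice. In P16 mice at 0 h, replicate 1 was the highest of the 12 mice and replicates 2 and 3 were the lowest, so the groups overlapped in every comparison. Fst passed no test with all mice, with a log2 fold change of 0.52 (SE 0.52, adjusted p = 0.462) for 48 h against 0 h in P16 mice. Without P16 replicate 1 at 0 h that log2 fold change was 1.62 (adjusted p = 0.00147), so the P16 response of Fst rests on 1 mouse. In the comparison of the arms averaged over both times, Fst was called without the same mouse (-0.92, adjusted p = 0.0409) and not with it (-0.37, adjusted p = 0.628).

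**Figure D2:**
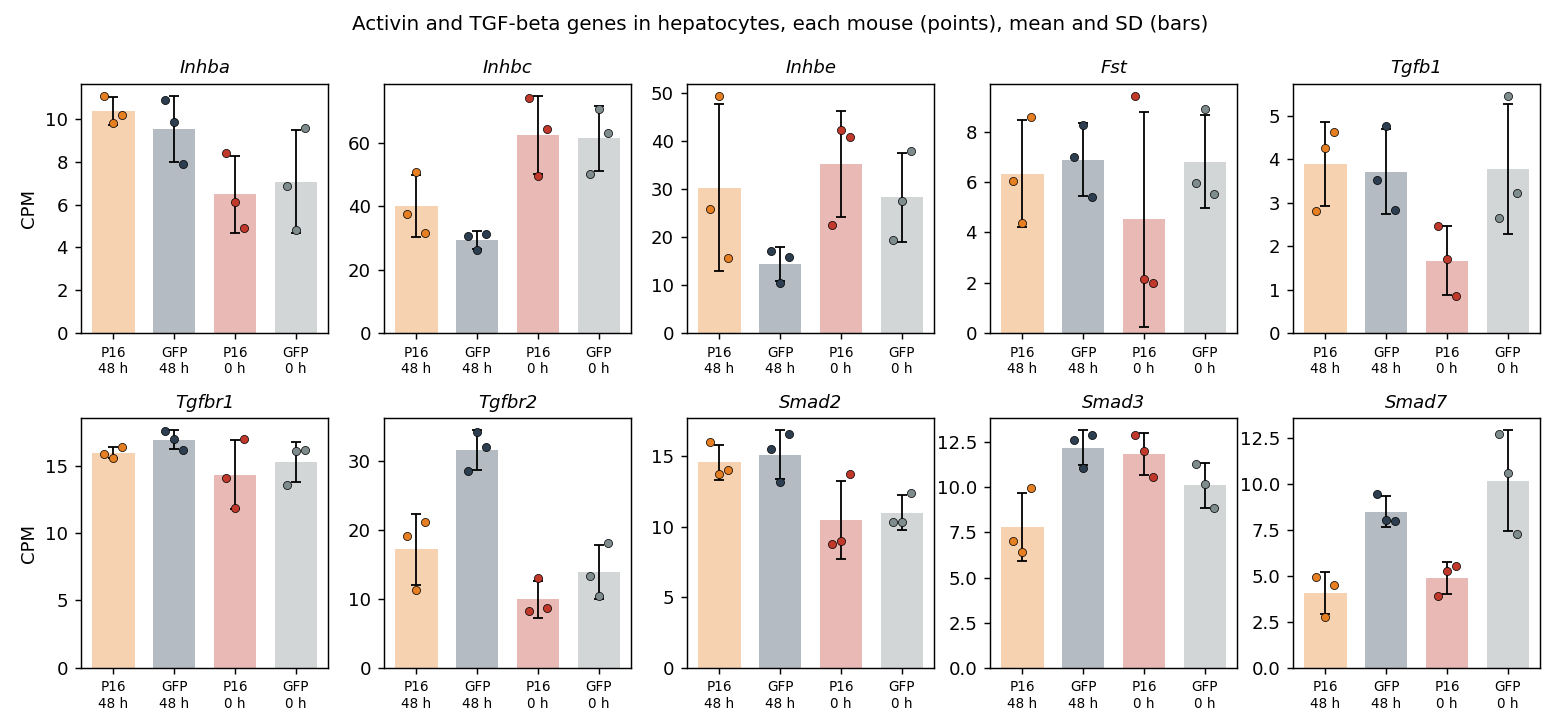
CPM of each of the 10 genes in each mouse (points) with the group mean ± SD (bars), n = 3 mice per group, P16 beside GFP mice at 48 h and then at 0 h. Smad7 has no P16 mouse above 5.52 CPM and no GFP mouse below 7.26 CPM, and Tgfbr2 is highest in GFP mice at 48 h.

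Tgfb1 encodes TGF-beta1 (chr7:25687002-25705077, plus strand, 5042 exonic bases). It had 2.8, 4.25 and 4.62 CPM in P16 mice at 48 h, against 3.52, 4.77 and 2.84 CPM in GFP mice at 48 h. At 0 h there were 2.46, 1.7 and 0.85 CPM in P16 mice, against 2.64, 5.47 and 3.22 CPM in GFP mice. The 0 h P16 values rested on 31, 28 and 12 reads, and all lay below the 3 GFP mice and below the P16 mice at 48 h. Tgfb1 rose in P16 mice after hepatectomy by 1.22 on the log2 scale (SE 0.40, adjusted p = 0.0196), a call that ended when replicate 3 of the P16 mice at 0 h (adjusted p = 0.0943) or at 48 h (adjusted p = 0.0746) was left out. The P16 against GFP difference at 0 h was -1.19 (SE 0.40) and did not pass (adjusted p = 0.206). The difference between the responses was 1.26 (SE 0.54, adjusted p = 0.36). Macrophages are a known source of Tgfb1 transcripts. Summed macrophage markers were 69.4 to 91.1 CPM in P16 mice and 45.2 to 105 CPM in GFP mice at 48 h. At 0 h they were 32.0 to 48.0 CPM in P16 mice and 43.1 to 216 CPM in GFP mice. The lowest sum, 32.0 CPM, came from P16 replicate 1 at 0 h, which had the highest Tgfb1 of its group. All 13 markers of that list had reads in each group, and their part in the Tgfb1 values was not tested. Without GFP replicate 2 at 0 h, which had the highest macrophage sum and the highest Tgfb1, the 0 h log2 fold change was -0.81 (adjusted p = 0.531).

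Tgfbr1 encodes the type I TGF-beta receptor (chr4:47353222-47414931, plus strand, 6534 exonic bases), and it was the steadiest gene of the set. It ranged from 11.9 to 17.6 CPM over the 12 mice, with group means of 15.9 ± 0.399 CPM in P16 mice at 48 h, 16.9 ± 0.725 CPM in GFP mice at 48 h, 14.3 ± 2.54 CPM in P16 mice at 0 h and 15.3 ± 1.47 CPM in GFP mice at 0 h (SD, n = 3 each). Its log2 fold changes lay between -0.10 and 0.15 in the 4 comparisons of groups, and the groups overlapped in each. None passed the test, except that the GFP response did without scaling of library sizes (adjusted p = 0.00494).

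Tgfbr2 encodes the type II receptor that binds TGF-beta itself, and lies on the minus strand of chromosome 9 (chr9:116084293-116175360, 8187 exonic bases). Its promoter window on GRCm38.p6 (chr9:116175364-116175613) is shown with that of Smad3 (chr9:63757995-63758244), also on the minus strand of chromosome 9, because for both genes the 48 h groups of the arms did not overlap, although neither passed the test there. Capitals mark CAGAC, and both are printed on the gene's strand from 5′ to 3′.
Tgfbr2: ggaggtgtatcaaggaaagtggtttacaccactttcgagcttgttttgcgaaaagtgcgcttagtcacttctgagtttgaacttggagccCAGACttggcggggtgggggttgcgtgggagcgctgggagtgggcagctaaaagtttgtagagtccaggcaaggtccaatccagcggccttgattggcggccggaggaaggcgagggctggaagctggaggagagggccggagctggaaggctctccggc
Smad3: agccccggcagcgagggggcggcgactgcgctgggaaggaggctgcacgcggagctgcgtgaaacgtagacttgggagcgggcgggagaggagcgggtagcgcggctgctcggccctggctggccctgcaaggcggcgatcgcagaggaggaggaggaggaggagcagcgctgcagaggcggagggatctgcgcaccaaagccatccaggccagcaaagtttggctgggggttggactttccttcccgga
The Tgfbr2 window holds 1 CAGAC match, at bases 160 to 156 before the start, and the Smad3 window holds no match to any of the 4 motifs. Their G and C content was 58.4% and 69.2%.

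Tgfbr2 had 19.2, 11.3 and 21.1 CPM in P16 mice at 48 h, against 28.5, 34.2 and 32.1 CPM in GFP mice at 48 h. At 0 h it had 8.18, 13.0 and 8.64 CPM in P16 mice, against 13.3, 10.4 and 18.1 CPM in GFP mice. GFP mice at 48 h were the highest group, with every mouse above all mice of the other 3 groups. The receptor rose after hepatectomy in GFP mice by 1.18 on the log2 scale (SE 0.24, adjusted p = 0.00123), which held in all 20 alternatives, and in P16 mice by 0.79 (SE 0.25, adjusted p = 0.0184). The P16 call ended when replicate 1 or 3 of the P16 mice was left out at either time (adjusted p = 0.0678 to 0.0875). For P16 against GFP mice at 48 h, the log2 fold change was -0.87 (SE 0.24) with adjusted p = 0.0637, and it passed in 7 of 20 alternatives (adjusted p = 0.0135 to 0.0437 in those). The difference between the responses was -0.40 (SE 0.34, adjusted p = 0.718). Per length, Tgfbr2 stood to Tgfbr1 at 0.967, 0.58 and 1.03 in P16 mice at 48 h, against 1.29, 1.61 and 1.58 in GFP mice at 48 h. At 0 h that ratio was 0.462, 0.871 and 0.406 in P16 mice, against 0.78, 0.514 and 0.89 in GFP mice. So the type II receptor transcript exceeded the type I transcript in every GFP mouse at 48 h and in 1 P16 mouse at 48 h, and in no mouse at 0 h. The sinusoidal endothelium also expresses TGF-beta receptors, and the sum of its 12 markers was 62.0 to 100 CPM in P16 mice and 56.2 to 92.8 CPM in GFP mice at 48 h, which overlapped. At 0 h it was 66.8 to 80.1 CPM in P16 mice and 94.3 to 155 CPM in GFP mice, without overlap and in the direction of the Tgfbr2 value there (log2 fold change -0.47), and its part in the Tgfbr2 values was not tested.

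Smad2 and Smad3 encode the transducers shared by activin and TGF-beta. Smad2 (chr18:76241580-76310963, plus strand, 8781 exonic bases) had 16, 13.7 and 14.0 CPM in P16 mice at 48 h, against 15.5, 13.2 and 16.6 CPM in GFP mice at 48 h. At 0 h it had 8.74, 9.0 and 13.7 CPM in P16 mice, against 10.3, 10.3 and 12.4 CPM in GFP mice. The arms overlapped at both times, with log2 fold changes of -0.06 (SE 0.18) at 48 h and -0.07 (SE 0.19) at 0 h. For 48 h against 0 h the log2 fold change was 0.47 (SE 0.19, adjusted p = 0.0559) in P16 mice and 0.46 (SE 0.19, adjusted p = 0.0642) in GFP mice, and neither passed. It passed in 5 of 20 alternatives in P16 mice (adjusted p = 0.00835 to 0.0495), among them leaving out GFP replicate 2 or P16 replicate 3 of 0 h, and in 3 of 20 in GFP mice (adjusted p = 0.000595 to 0.0476), among them leaving out P16 replicate 3 of 0 h.

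Smad3 (chr9:63646767-63757994, minus strand, 5542 exonic bases) had 7.01, 6.41 and 9.94 CPM in P16 mice at 48 h, against 12.6, 11.1 and 12.9 CPM in GFP mice at 48 h. The 0 h values were 12.9, 12.0 and 10.6 CPM in P16 mice, against 11.3, 10.2 and 8.83 CPM in GFP mice. The P16 mice at 48 h lay below both the GFP mice at 48 h and the P16 mice at 0 h without overlap. In P16 mice Smad3 fell by 0.60 on the log2 scale after hepatectomy (SE 0.19, adjusted p = 0.0192), while in GFP mice the log2 fold change was 0.27 (SE 0.19, adjusted p = 0.293). The difference between these responses, -0.87 (SE 0.27), had the smallest p of the set in that test (unadjusted p = 0.00463) and did not pass after adjustment (adjusted p = 0.181, and 0.0748 to 0.4 over 19 alternatives). At 48 h P16 against GFP gave -0.64 (SE 0.19, adjusted p = 0.0809), which passed with DESeq2, without scaling and without P16 replicate 3 at 48 h (adjusted p = 0.0283 to 0.0447). The P16 response did not pass when replicate 1 of 0 h, or replicate 1 or 2 of 48 h, was left out (adjusted p = 0.0606 to 0.0866), and without scaling, where it was -0.34 (adjusted p = 0.222).

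Smad7 encodes the inhibitory SMAD (chr18:75367529-75395935, plus strand, 4521 exonic bases). It had 4.95, 2.77 and 4.53 CPM in P16 mice at 48 h, against 9.48, 8.03 and 7.97 CPM in GFP mice at 48 h. Likewise, 0 h values were 3.89, 5.29 and 5.52 CPM in P16 mice, against 12.7, 10.6 and 7.26 CPM in GFP mice. All 6 P16 mice lay below all 6 GFP mice. With the arms compared within each time, 1.17% of all genes tested were lower in P16 mice without overlap at each time. This is a looser condition than all 6 against all 6, for which the share was not computed. The log2 fold change was -1.05 (SE 0.25, adjusted p = 0.0378) at 48 h and -1.05 (SE 0.26, adjusted p = 0.106) at 0 h. The 48 h call was lost without any 1 GFP mouse of 48 h (adjusted p = 0.105 to 0.159) and without P16 replicate 2 (adjusted p = 0.218) or 3 (adjusted p = 0.0695) of 48 h, with log2 fold changes of -0.85 to -1.13 in these fits. Averaged over both times, in a comparison added after the values were seen, Smad7 was -1.05 (SE 0.18, adjusted p = 0.00828) and kept its call in all 19 alternatives (adjusted p = 2.33e-05 to 0.025). Between 48 h and 0 h the log2 fold change was -0.26 in each arm, and neither passed (adjusted p = 0.466 in P16 mice and 0.453 in GFP mice).

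Set against Smad2 within the same library, a ratio that does not depend on library scaling, Smad7 per length stood at 0.603, 0.394 and 0.63 in P16 mice at 48 h, against 1.19, 1.18 and 0.93 in GFP mice at 48 h. At 0 h the ratio was 0.865, 1.14 and 0.781 in P16 mice, against 2.38, 2.01 and 1.13 in GFP mice. The arms did not overlap at 48 h and touched at 0 h, where the highest P16 mouse reached 1.14 and the lowest GFP mouse 1.13. Against Smad3, the ratio overlapped at 48 h, with 0.867, 0.53 and 0.558 in P16 mice and 0.926, 0.887 and 0.759 in GFP mice, and Smad3 itself was lower in P16 mice. It did not overlap at 0 h, with 0.371, 0.539 and 0.637 in P16 mice and 1.37, 1.28 and 1.01 in GFP mice. At 0 h Smad3 itself averaged higher in P16 mice (11.8 CPM, against 10.1 CPM in GFP mice), which widens the gap in that ratio. The arms were thus apart relative to Smad2 at 48 h and to Smad3 at 0 h, and overlapped relative to Smad2 at 0 h and to Smad3 at 48 h. All these ratios use the same Smad7 reads as the values above.

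Over the whole set, 1 of 10 genes was called for P16 against GFP mice at 48 h, where 2.28% of all genes tested were called. At 0 h 0 of 10 were called, against 0.22% of all genes. Before adjustment Smad7 and Tgfb1 had p-values below 0.05 there (2 genes), and the calls numbered 1 with DESeq2 and 0 with limma-voom. Of all 12257 genes tested, 1652 had p below 0.05 at 0 h before adjustment. The 48 h groups did not overlap for 4 of 10 genes (Inhbc higher, and Tgfbr2, Smad3 and Smad7 lower), beside 28.2% of all genes, and the 0 h groups for 2 of 10 (Tgfb1 and Smad7, both lower), beside 14.4%. Averaged over both times, 2 of 10 were called lower, Smad7 and Tgfbr2 (-0.67, SE 0.17, adjusted p = 0.0432), beside 1.07% of all genes called lower and 3.29% called in either direction. The Tgfbr2 call was lost in 10 of 19 alternatives, among them leaving out GFP replicate 1 or 3 at 0 h, P16 replicate 1 or 3 at 0 h, any GFP replicate at 48 h or P16 replicate 2 at 48 h (adjusted p = 0.0532 to 0.104). The median log2 fold change of the 10 genes was -0.07 at 48 h and -0.11 at 0 h, and that of all genes was 0.00 at both times.

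The hepatectomy comparison asks how the brake genes stand while the liver regrows. In P16 mice 5 of 10 genes were called between 48 h and 0 h (Inhba, Tgfb1 and Tgfbr2 higher, Inhbc and Smad3 lower), beside 38.6% of all genes. In GFP mice 2 of 10 were called (Tgfbr2 higher and Inhbc lower), beside 33.6% of all genes. The groups did not overlap for 3 of 10 genes in P16 mice, beside 49.5% of all genes, and for 4 of 10 in GFP mice, beside 47.6%. Hepatectomy moved much of the transcriptome, so with 10 genes these counts set the group apart from the background in neither arm. Their median log2 fold change was 0.31 in P16 mice (all genes 0.00) and 0.08 in GFP mice (all genes -0.01). For the difference between the responses 0 of 10 were called, beside 0.0979% of all genes, where 2 genes (Smad3 and Tgfb1) had p below 0.05 before adjustment and both DESeq2 and limma-voom made 0 calls. Before adjustment, 1451 of all 12257 genes tested had p below 0.05 for that difference.

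**Figure D3:**
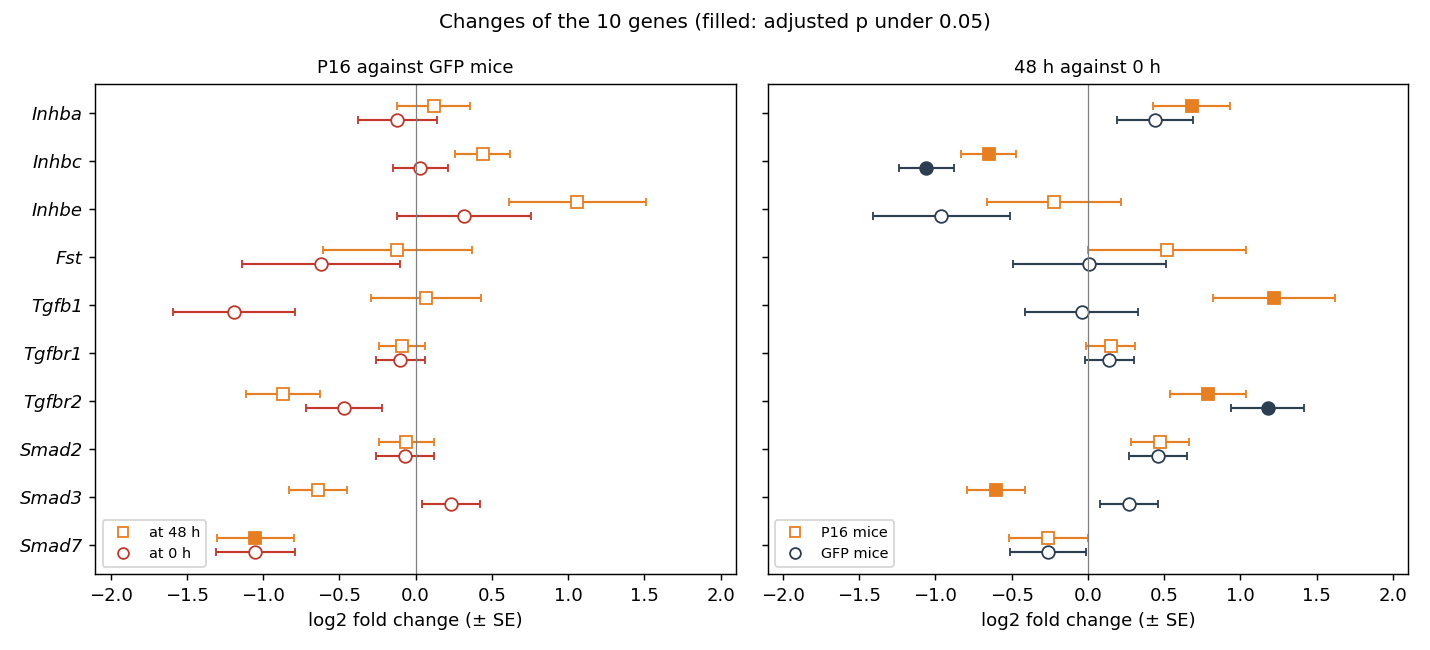
Log2 fold change of each of the 10 genes with its SE as a bar, P16 against GFP mice at 48 h and at 0 h in 1 panel and 48 h against 0 h in P16 and in GFP mice in the other, with filled symbols for adjusted p under 0.05. Smad7 is at -1.05 at both times, Tgfbr2 lies above 0 after hepatectomy in both arms and Inhbc below it, and Smad3 lies on opposite sides of 0 in the arms.

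Around these genes, 103 other symbols of the TGF-beta superfamily pathway were taken in 6 lists by role, of which 100 were in the table and 77 were tested. Cyr61 and Ctgf, not found under those symbols, are older names of Ccn1 and Ccn2, which are in the same list. Smad6, Smad9, Skil, Pmepa1 and Ltbp2 each stand in more than 1 list, so the counts of single lists share genes. For P16 against GFP mice at 48 h, 0 of the 77 were called (15 had p below 0.05 before adjustment, and DESeq2 made 3 calls and limma-voom 1). Of all 12257 genes tested, 2142 had p below 0.05 at 48 h before adjustment. At 0 h 1 of 77 was called, Gdf15, a stress-induced distant member of the ligand family. It averaged 119 ± 6.42 CPM in P16 mice at 48 h and 85.0 ± 7.44 CPM in GFP mice at 48 h, and 139 ± 35.2 CPM in P16 mice at 0 h and 37.2 ± 18.8 CPM in GFP mice at 0 h (SD, n = 3 each). At 0 h Gdf15 was thus 3.75-fold higher in P16 mice (adjusted p = 0.0358), or 1.91 on the log2 scale with SE 0.31. That call ended in 9 of the 12 fits that left out 1 library, namely each library of 48 h, GFP replicate 3 of 0 h and P16 replicates 1 and 3 of 0 h (adjusted p = 0.0602 to 0.131, log2 fold change 1.64 to 2.39 over the 12). After hepatectomy, 26 of 77 were called in P16 mice, 12 higher and 14 lower, beside 38.6% of all genes, and 25 in GFP mice, 11 higher and 14 lower, beside 33.6% of all genes. Both counts lie below those shares, and the counts of single lists are read against the same percentages. The difference between the responses called 0 of 77 (9 had p below 0.05 before adjustment, and DESeq2 made 1 call and limma-voom 0). Before adjustment, 1451 of all 12257 genes tested had p below 0.05 for that difference.

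Among 18 tested target genes of TGF-beta and activin, 8 rose and 1 fell after hepatectomy in P16 mice (38.6% of all genes called), and 6 rose and 0 fell in GFP mice (33.6% of all genes called). Their median log2 fold change was 1.10 in P16 mice (all genes 0.00) and 0.61 in GFP mice (all genes -0.01). Col1a1, a fibrillar collagen chain, rose 13.5-fold in P16 mice (adjusted p = 0.000234) and 4.12-fold in GFP mice (adjusted p = 0.0168). Summed over the 3 mice of a group, Col1a1 had only 9 reads in P16 mice and 16 in GFP mice at 0 h. At 48 h it had 167 and 109 in that order, so the sizes of these folds rest on few reads. Gadd45b, a stress and growth-arrest gene, rose 4.84-fold in P16 mice (adjusted p = 0.0194) and 4.18-fold in GFP mice (adjusted p = 0.043). Cdkn1a, the cell cycle inhibitor p21, averaged 47.2 ± 17.6 CPM at 48 h and 5.5 ± 3.01 CPM at 0 h in P16 mice, an 8.57-fold rise (adjusted p = 0.00491). In GFP mice Cdkn1a averaged 50 ± 12.1 CPM at 48 h and 16.8 ± 12.7 CPM at 0 h, a 2.94-fold difference that did not pass (adjusted p = 0.0693), and the responses were not shown to differ (adjusted p = 0.527). Leaving out 1 library ended the GFP call of Col1a1 (replicate 2 of either time, adjusted p = 0.0594 and 0.0643) and both calls of Gadd45b. For Gadd45b this held in P16 mice without replicate 1 or 2 of 0 h or 1 or 3 of 48 h (adjusted p = 0.0502 to 0.0745), and in GFP mice without any GFP replicate of 0 h, GFP replicate 2 or 3 of 48 h, or P16 replicate 1 of either time (adjusted p = 0.0549 to 0.128). Many of these targets answer to other signals as well. Stellate cells also express Col1a1, which is in their marker list, and the sum of 12 stellate markers was 101 to 140 CPM at 48 h and 57.9 to 95.7 CPM at 0 h in P16 mice, and 105 to 132 CPM at 48 h and 80.0 to 109 CPM at 0 h in GFP mice. Their part in the target genes was not tested. The GFP count was 3 higher and 1 lower of 18 without GFP replicate 2 of 0 h, 3 higher and 0 lower of 19 without GFP replicate 1 or 3 of 0 h, and 2 higher and 0 lower of 19 without GFP replicate 2 of 48 h.

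The BMP branch, which runs through SMAD1, SMAD5 and SMAD9, is the neighbouring arm of the superfamily and controls iron handling in hepatocytes. Of its 8 tested target genes, 1 rose and 5 fell after hepatectomy in each arm (38.6% of all genes called in P16 mice and 33.6% in GFP mice), with a median log2 fold change of -1.03 in P16 mice and -1.10 in GFP mice. Hamp, the iron hormone hepcidin, averaged 191 ± 139 CPM at 48 h and 1040 ± 511 CPM at 0 h in P16 mice, a 5.45-fold fall (adjusted p = 0.0224). In GFP mice it averaged 189 ± 108 CPM at 48 h and 982 ± 348 CPM at 0 h, a 5.2-fold fall (adjusted p = 0.0288). Neither call of Hamp held throughout: it ended in P16 mice without replicate 1 or 2 of 0 h or 1 or 3 of 48 h (adjusted p = 0.0571 to 0.0774), and in GFP mice without replicate 1 or 3 of 0 h or 2 or 3 of 48 h (adjusted p = 0.0707 to 0.0977). Atoh8, a transcription factor that follows BMP signalling in liver, fell 2.76-fold in P16 mice (adjusted p = 0.000617) and 4.4-fold in GFP mice (adjusted p = 2.97e-05). Id1, an inhibitor of basic helix-loop-helix factors, went the other way, and rose 3.07-fold in P16 mice (adjusted p = 0.000135) and 3.69-fold in GFP mice (adjusted p = 2.14e-05). In P16 against GFP mice, 0 of these 8 were called at 48 h (4 had p below 0.05 before adjustment, and DESeq2 made 2 calls and limma-voom 1). Of all 12257 genes tested, 2142 had p below 0.05 at 48 h before adjustment. The GFP response held 1 higher and 3 lower of 8 without GFP replicate 2 of 0 h, 1 higher and 1 lower without GFP replicate 1 of 0 h, and 1 higher and 2 lower without GFP replicate 3 of 48 h.

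Among the other SMADs and feedback proteins, 18 tested, 2 rose and 4 fell in P16 mice after hepatectomy (38.6% of all genes called), and 2 rose and 2 fell in GFP mice (33.6% of all genes called). The GFP count was 4 higher and 1 lower without GFP replicate 2 of 0 h, and 1 or 2 genes in all without GFP replicate 1 of 0 h or any GFP replicate of 48 h. Smad6, the inhibitory SMAD of the BMP branch, fell 2.72-fold in P16 mice (adjusted p = 0.00611) and 2.15-fold in GFP mice (adjusted p = 0.0237). Smad4, the partner of all receptor-activated SMADs, rose 1.39-fold in GFP mice (adjusted p = 0.0298). The GFP call of Smad6 ended without GFP replicate 1 or 2 of 0 h or 1 or 3 of 48 h (adjusted p = 0.0592 to 0.107), and that of Smad4 without GFP replicate 1 or 3 of 0 h or 2 or 3 of 48 h (adjusted p = 0.055 to 0.135). Smurf1, a ubiquitin ligase that works with SMAD7, was the only one of the 77 called lower in P16 than in GFP mice averaged over both times (log2 fold change -0.55, SE 0.13, adjusted p = 0.0318), and Gdf15 (1.19, SE 0.21, adjusted p = 0.0192) and the target gene Junb (1.44, SE 0.26, adjusted p = 0.0254) were called higher. All 3 calls ended without P16 replicate 2 of 48 h (adjusted p = 0.0851, 0.0663 and 0.0793 in that order). They also ended without GFP replicate 1 or 3 of 48 h, those of Gdf15 and Junb without GFP replicate 2 of 48 h, those of Smurf1 and Junb without GFP replicate 3 of 0 h, that of Smurf1 without P16 replicate 2 or 3 of 0 h, and that of Junb without P16 replicate 3 of 48 h (adjusted p = 0.0526 to 0.0903).

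Of 17 tested extracellular inhibitors and latency or activation factors, 4 fell and 0 rose in P16 mice (38.6% of all genes called), and 5 fell and 0 rose in GFP mice (33.6% of all genes called). The counts were 2 without P16 replicate 1 of 0 h or 3 of 48 h in P16 mice, and 2 or 3 without GFP replicate 1 or 3 of 0 h or 1 or 2 of 48 h in GFP mice. Among them was Chrd, the BMP antagonist chordin (1.63-fold lower in P16 mice, adjusted p = 0.0317, and 2.44-fold lower in GFP mice, adjusted p = 0.000659). Its P16 call ended without P16 replicate 1 or 3 of either time (adjusted p = 0.0588 to 0.178). Of 10 tested receptors other than Tgfbr1 and Tgfbr2, the activin type I receptor Acvr1b fell 1.61-fold in P16 mice (adjusted p = 0.00934) and the BMP type II receptor Bmpr2 fell 1.69-fold in GFP mice (adjusted p = 0.00125), and no other was called with all mice, although 2 or 3 were when GFP replicate 1 of 0 h, GFP replicate 2 of 48 h or P16 replicate 1 of 48 h (GFP response) or P16 replicate 2 of 0 h (P16 response) was left out. Of 11 tested genes of the ligand list, which includes the protease Bmp1, 1 rose and 1 fell in P16 mice (38.6% of all genes called). In GFP mice 2 rose and 2 fell (33.6% of all genes called). Without P16 replicate 3 of 48 h the P16 count was 0 higher and 1 lower, and without GFP replicate 1 of 0 h or GFP replicate 1 or 3 of 48 h the GFP count was 1 higher and 1 lower. Without GFP replicate 2 of 0 h, the GFP count was 1 higher and 2 lower of 12 tested. Bmp1, a protease that processes procollagen and superfamily antagonists and not a ligand, fell in both arms (1.62-fold in P16 mice, adjusted p = 0.000939, and 1.68-fold in GFP mice, adjusted p = 0.000552). With all mice, it was the only gene of the list called lower in P16 mice. In GFP mice the other gene called lower was the ligand Bmp4.

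**Figure D4:**
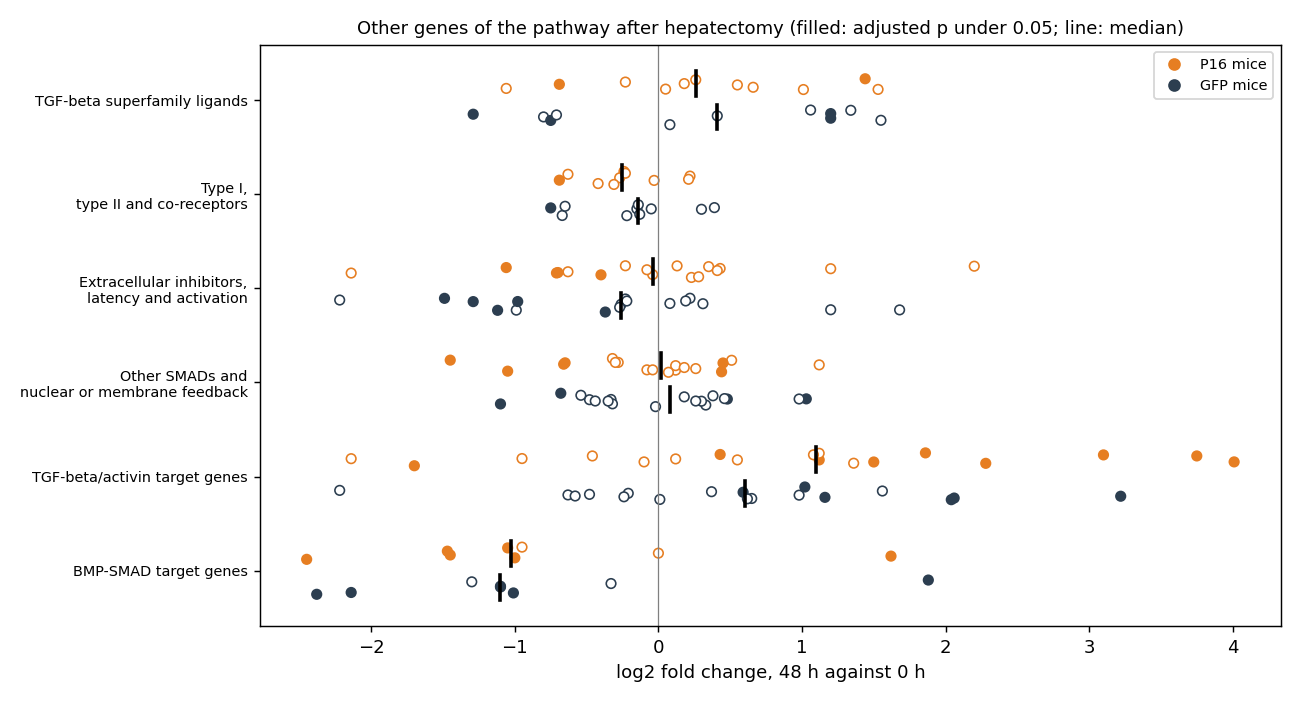
Log2 fold change at 48 h against 0 h for the tested genes of each of the 6 pathway lists (points) with the list median (bar), P16 mice above GFP mice, and filled points for adjusted p under 0.05. The BMP-SMAD targets have medians of -1.03 in P16 mice and -1.10 in GFP mice, and the TGF-beta and activin targets have medians of 1.10 in P16 mice and 0.61 in GFP mice.

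Genes whose profile over the 12 libraries was most like that of a gene of the set were found among 10564 genes by the root mean square difference of log2 CPM, each gene centred on its own mean. Inhbc was followed most closely by Ero1lb (0.14) and Sel1l (0.15), which encode proteins of the endoplasmic reticulum, and then by Znrf1 (0.17). Inhbc itself varied by 0.50 around its mean. Inhbe was closest to Saa4 (0.29), Mbl1 (0.34) and Crp (0.36), secreted plasma proteins of the liver, with its own variation at 0.67. Smad7 was closest to Fzd6 (0.28), Tgfbr2 to Myo10 (0.22), Smad3 to Npc1 (0.15) and Inhba to Tcof1 (0.19), against variation of their own of 0.61, 0.69, 0.32 and 0.41 in that order. Fst and Tgfb1 had no gene closer than 0.38 and 0.30.

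The non-parenchymal marker sums are set beside the 3 genes that other liver cells are known to express well. For Smad7, the arms were apart at both times, and at 48 h the macrophage, endothelial and stellate sums overlapped between the arms. The part of these cells in the 48 h value was not tested. At 0 h the endothelial sum was 66.8 to 80.1 CPM in P16 mice and 94.3 to 155 CPM in GFP mice, without overlap. The macrophage sum was 32.0 to 48.0 CPM and 43.1 to 216 CPM in that order, and the stellate sum 57.9 to 95.7 CPM and 80.0 to 109 CPM. These latter sums overlapped, and each mean was lower in P16 mice, in the same direction as Smad7. In the edgeR test at 0 h, 1652 of all 12257 genes tested had p below 0.05 before adjustment. Of 13 macrophage markers 12 did, and 1 was called lower. The part of these cells in the 0 h value was not tested. Neutrophil markers summed to 70.1 to 212 CPM in P16 mice and 7.46 to 14.6 CPM in GFP mice at 48 h, nearly all of it Prtn3 (6436 reads in P16 mice and 858 in GFP mice), while the defining neutrophil genes Ly6g and Retnlg had 0 reads in every library. The others had few reads at 48 h, with S100a8 at 14 in P16 mice and 3 in GFP mice, S100a9 at 16 and 2, Elane at 28 and 11, and Mpo at 0 and 4, each summed over the 3 mice of P16 and then of GFP. Their part in the results was not tested.

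**Figure D5:**
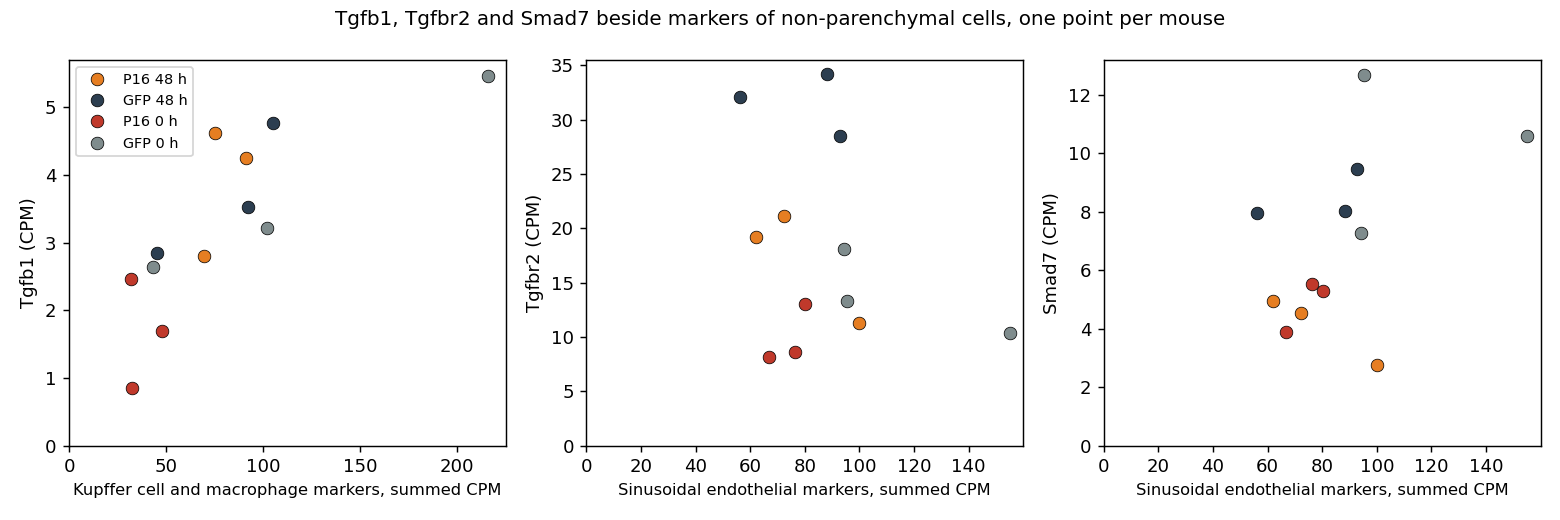
CPM of Tgfb1 in each mouse against the summed CPM of macrophage markers, and of Tgfbr2 and Smad7 against the summed CPM of sinusoidal endothelial markers, coloured by group. Smad7 separates P16 from GFP mice along the vertical axis (2.77 to 5.52 CPM in P16 mice and 7.26 to 12.7 CPM in GFP mice), and the mouse with the highest macrophage sum (216 CPM, GFP at 0 h) has the highest Tgfb1 (5.47 CPM).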

How the data were processed

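Whole-number read counts per gene were used as deposited, without normalization. The submitters' processing notes name HTSeq, STAR 2.5.0c, Trim Galore, Picard and SAMtools, and build mm10, but no settings, annotation release or strand handling. Reads outside any gene (3.62 to 9.8%) or ambiguous between genes (4.87 to 8.8%) were left out. Symbols matched 30934 of 31053 gene IDs. The 4 groups came from the labels, and the 3 libraries of a group are separate mice.

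Genes were filtered with filterByExpr, scaled with TMM and tested with edgeR 4.0.16 (R 4.3.3) in 1 model of 4 group means, with robust quasi-likelihood fits and Benjamini-Hochberg adjustment over 12257 genes. SE is the log2 fold change divided by the square root of F. The median SE over all genes was 0.2 at 48 h and 0.287 for the difference between responses. Exon lengths for RPKM came from GENCODE annotation of GRCm38. The script was tested on simulated data. Alternatives were RLE scaling, no scaling, no filter, limma-voom 3.58.1, DESeq2 1.42.0, a replicate block, fits on only 2 groups, and leaving out each library. The average over both times and leaving out GFP replicate 2 at 0 h with P16 replicate 2 at 48 h were examined as well, the average being added after values were seen.

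The 10 genes and all lists were chosen with earlier results of these data known. All 10 genes are described in each comparison, and from each pathway list up to 4 called genes with the largest change, or up to 2 of lowest p, could be named per comparison. The lowest gene, Tgfb1, had 12 to 110 reads per library, so counting error adds to the spread between mice.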

Additional observations from a re-analysis of the deposited data

How the results depend on the processing

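Of 1180 recomputed values for single genes, 1118 kept their side of the threshold, 35 lost a call and 27 gained one. No called value changed sign (0), whereas values that were not called changed sign 89 times. The cause of the changes below was not tested.

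Counts of the 10 genes called moved as follows. For P16 against GFP mice at 48 h (1), they were 3 without scaling, 2 without the low-count filter, 2 in the fit of only 2 groups, 2 with limma-voom, 3 with DESeq2 and 0 without GFP replicate 2 at 0 h and P16 replicate 2 at 48 h together. At 0 h (0) they were 1 without the filter and 1 with DESeq2. The GFP response (2) had 6 without scaling, and the average over both times (2) had 1 with limma-voom. Leaving out 1 library gave 0 to 2 at 48 h, 0 to 0 at 0 h, 1 to 6 for the P16 response, 2 to 3 for the GFP response, 0 to 0 for the difference between responses and 1 to 2 for the average.

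Counts over all genes moved likewise. At 48 h (280) they were 615 without scaling, 538 without the filter, 752 in the fit of only 2 groups, 660 with DESeq2 and 145 without the 2 libraries. At 0 h (27) they were 160 without the filter, 9 in the fit of only 2 groups, 14 with limma-voom and 179 with DESeq2. The GFP response (4117) had 6197 without scaling. The difference between responses (12) had 93 without scaling, 173 without the filter, 200 with DESeq2 and 28 without the 2 libraries. The average (403) had 691 without the filter, 746 with DESeq2 and 205 without the 2 libraries. Leaving out 1 library gave 10 to 665 at 48 h, 5 to 148 at 0 h, 3885 to 5167 for the P16 response, 3011 to 4185 for the GFP response, 2 to 76 for the difference and 105 to 581 for the average.

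TMM factors ran from 0.825 to 1.23, and without them the median of all genes shifted by -0.22 at 48 h, 0.25 in the P16 response, 0.50 in the GFP response and -0.25 in their difference. The share of calls that were higher was then 10.6% (54.3% with TMM), 73.4% (50.7%), 89.2% (51.3%) and 8.6% (33.3%), and 38.3% (67.5%) for the average.

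Same-numbered mice did not deviate together (correlations -0.0479 to 0.0609), which gives no sign that the replicate numbers pair the mice. With 3 mice per group these correlations cannot exclude such pairing. With a replicate block, 0 of the 10 genes were called at 48 h, with Smad7 at adjusted p = 0.0586, and 1 in the average. Over all genes the block gave 150 calls at 48 h, 44 for the difference between responses and 206 for the average.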
